A study of Homo sapiens with 12 samples.

Results

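The 37 genes of the human mitochondrial genome were followed through an RNA immunoprecipitation (RIP) of endogenous ADAR3 in U373-MG cells, an established human glioblastoma line. ADAR3 belongs to the adenosine deaminases acting on RNA, binds double-stranded RNA and has no known editing activity. The genes were chosen by Ensembl ID, not by any measured value, although earlier results of these data were known. They comprise 13 mRNAs, 2 rRNAs and 22 tRNAs, of 31707 genes listed in the deposited tables. Of the 37, 30 had a row to analyse, 29 of them in the immunoprecipitation (IP) table and 30 in the input table. The 7 others, MT-TV, MT-TW, MT-TC, MT-TD, MT-TG, MT-TR and MT-TS2, are all tRNAs and were not analysed here.

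Cells of all 3 groups were crosslinked with ultraviolet light at 150 mJ/cm2 and sonicated. The 4 ADAR3 IP libraries used an antibody to the protein, the 4 pre-immune IP libraries used pre-immune serum, which shows what RNA is recovered without specific antibody, and the 4 input libraries used RNA that had not been immunoprecipitated. No label gives a genotype, a treatment or separate cultures. The p-values therefore reflect variation among libraries of 1 line, which may be technical. Every library was depleted of rRNA, and the NEBNext kit named in the labels is designed to remove mitochondrial as well as cytosolic rRNA. Input depletion started from 1 µg of total RNA and each IP from all the RNA it had recovered. The molecule field of the labels names polyA RNA instead, and no label settles this difference.

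Human mitochondrial DNA is a small circle, and both of its strands are transcribed as long precursors. Transcription from the heavy-strand promoter yields both rRNAs, 12 mRNAs and 14 tRNAs, while the light-strand transcript yields MT-ND6 and 8 tRNAs. The tRNAs lie between the other genes, and their excision by RNase P and ELAC2 frees the rRNAs and mRNAs on either side. Most of the remaining light-strand RNA is antisense to heavy-strand genes and is normally degraded, but it can pair with heavy-strand RNA into double-stranded RNA. Strand use in the read counting is not given in the sources used here, and opposite-strand reads cannot be told apart from those of the named gene. Nuclear copies of mitochondrial DNA are near-identical in places, and reads could be split between them.

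Depth ranged from 23999234 to 30156884 gene reads in ADAR3 IP libraries, from 1875461 to 4946149 with pre-immune serum and from 4873428 to 12772412 in input. Levels are given as CPM, reads per 1000000 gene reads of the library, and a log2 fold change or log2 difference is one of log2(CPM + 1). Being shares of a library, they do not show how much RNA was recovered. In bulk libraries fewer cells carrying a transcript and less of it per cell cannot be told apart. Differences were called with limma over all genes at an adjusted p under 0.05.

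Mitochondrial transcripts took a large share of every library, but the kind of transcript differed between groups. All members together made up 12.6%, 12.9%, 11.5% and 11.7% of gene reads in ADAR3 IP replicates 1 to 4, 15.4%, 14.5%, 11.3% and 12.9% with pre-immune serum, and 8.29%, 7.75%, 8.60% and 8.60% in input. Both IPs lay above input in every library and overlapped each other. The mRNAs held 6.59% ± 0.595 of reads in ADAR3 IP (SD, n = 4 here and below), 2.08% ± 0.438 with pre-immune serum and 8.27% ± 0.400 in input. The rRNAs held 5.57% ± 0.377, 11.4% ± 1.77 and 0.0144% ± 0.00482 in the same order. So the mitochondrial reads of input were nearly all mRNA, those of pre-immune IP mostly rRNA and those of ADAR3 IP a mixture of both, and for each of these 2 classes no group overlapped another. Ranked by reads, members filled 9 of the first 10 places of ADAR3 IP, 5 of 10 with pre-immune serum and 7 of 10 in input. The tRNAs were minor in all groups, at 0.0185% ± 0.00200, 0.00712% ± 0.00253 and 0.0312% ± 0.00257 of reads.

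**Figure D1:**
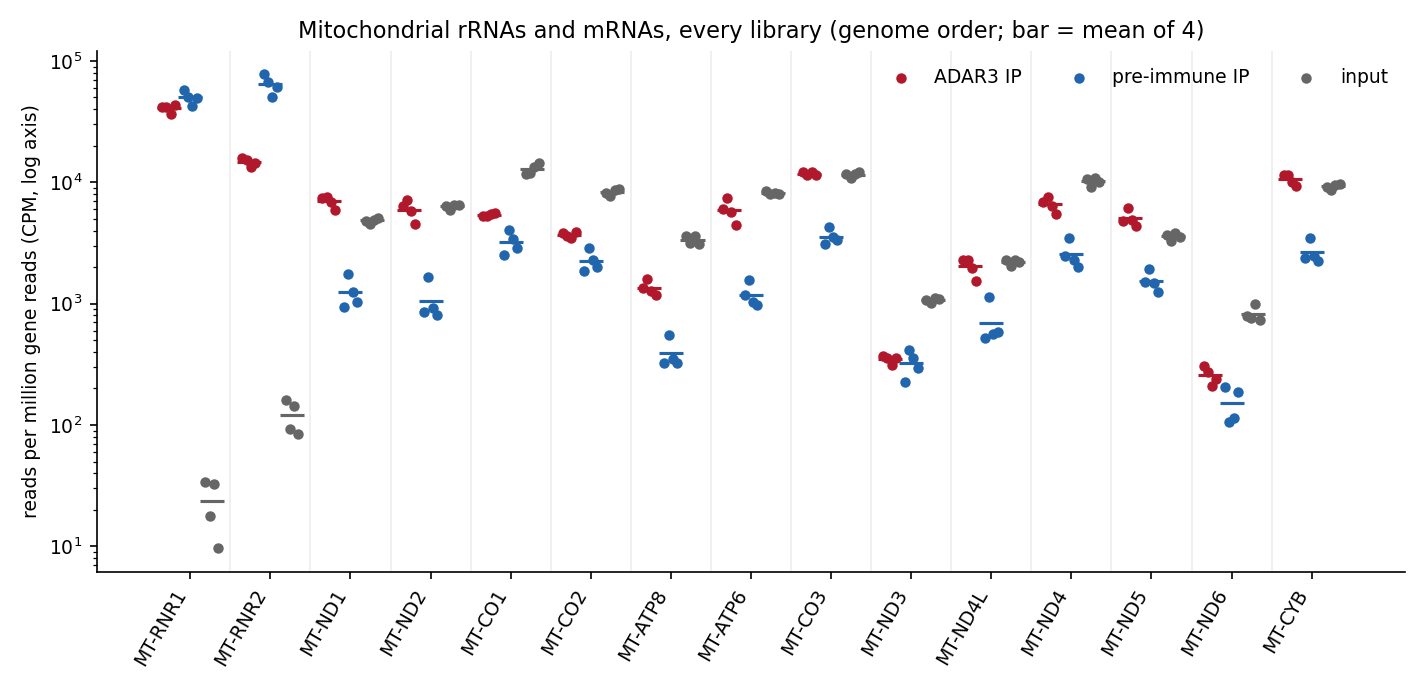
CPM (log axis) of the 2 rRNAs and 13 mRNAs in genome order, with 1 point per library and a bar at the mean of the 4 libraries of a group. Both rRNAs lie at 9.68 to 159 CPM in input and at 13483 CPM or more in every IP library, and the mRNAs lie lowest with pre-immune serum, where MT-ND3 overlaps ADAR3 IP.

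MT-RNR1 (ENSG00000211459, chrMT:648-1601) encodes 12S rRNA, the RNA of the small mitochondrial ribosomal subunit. Its level was 41766, 41572, 36591 and 43649 CPM in ADAR3 IP, 58132, 50554, 42172 and 49931 CPM with pre-immune serum, and 33.9, 17.7, 32.6 and 9.68 CPM in input. The IPs overlapped each other and stood far above input. Over input the log2 difference was 10.86 ± 0.26 (SE; limma adjusted p = 1.34e-14) in ADAR3 IP, the highest of 11272 genes tested. In pre-immune IP it was 11.15 ± 0.32 (limma adjusted p = 6.24e-09), ranking 3 among 11232. ADAR3 IP over pre-immune IP gave -0.29 ± 0.18, which did not pass (limma adjusted p = 0.4).

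MT-RNR2 (ENSG00000210082, chrMT:1671-3229) encodes 16S rRNA, the RNA of the large subunit. ADAR3 IP held 15876, 15318, 13483 and 14448 CPM of it, pre-immune IP 77459, 67370, 50753 and 60805 CPM, and input 159, 93.4, 143 and 84.8 CPM. The 3 groups were fully separated, with pre-immune IP highest and input lowest. MT-RNR2 was lower in ADAR3 IP than with pre-immune serum, at -2.10 ± 0.18 on the log2 scale (SE; limma adjusted p = 2.13e-05), or 4.29-fold. It was the only member called lower there, where 1.44% of all 11303 genes tested were called lower. Over input it was higher in both IPs, by 6.98 ± 0.15 (limma adjusted p = 6.78e-15) in ADAR3 IP and 9.08 ± 0.21 (limma adjusted p = 7.74e-10) with pre-immune serum. Of all genes tested 32.6% were called higher in ADAR3 IP than in input, and 1.43% with pre-immune serum than in input.

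The balance of the rRNAs therefore differed between groups, and as a ratio within a library it does not depend on the library total. There were 2.63, 2.71, 2.71 and 3.02 reads of MT-RNR1 per read of MT-RNR2 in ADAR3 IP, 0.750, 0.750, 0.831 and 0.821 with pre-immune serum, and 0.213, 0.189, 0.228 and 0.114 in input. No group overlapped another in this ratio. Per kilobase, MT-RNR1 stood at 42866 ± 3164 and MT-RNR2 at 9481 ± 671 reads per kilobase of gene per 1000000 gene reads (RPKM) in ADAR3 IP, against 52618 ± 6835 and 41114 ± 7202 RPKM with pre-immune serum. The input libraries differ from the IPs in the starting amount for rRNA depletion as well as in the IP itself, and the parts of each in these rRNA levels cannot be told apart. Both IPs used all recovered RNA; the amounts recovered were not analysed here.

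**Figure D2:**
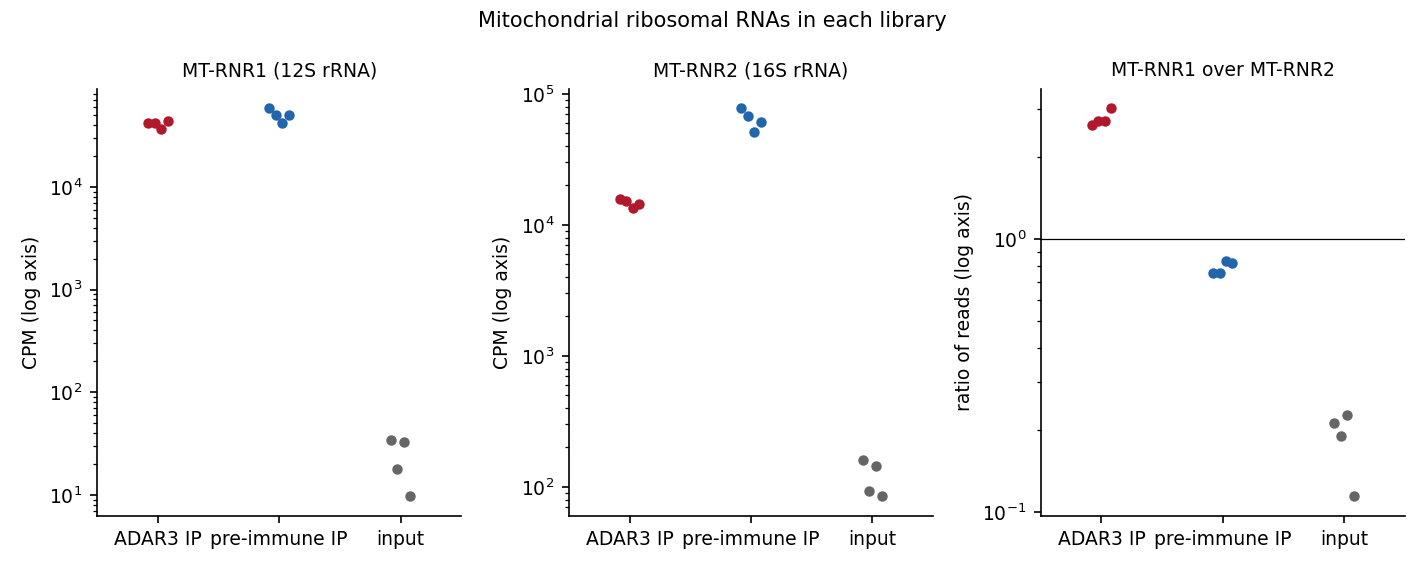
MT-RNR1 and MT-RNR2 in CPM, and the ratio of their reads, all on log axes with 1 point per library. MT-RNR2 is fully separated between the groups, MT-RNR1 overlaps between the IPs, and the ratio lies above 1 only in ADAR3 IP.

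The 13 mRNAs encode core subunits of oxidative phosphorylation: 7 of NADH dehydrogenase (complex I), cytochrome b of complex III, 3 of cytochrome c oxidase (complex IV) and 2 of ATP synthase (complex V). All 13 exceeded the minimum of 5 CPM in every group. In ADAR3 IP over pre-immune IP, 11 of 13 were called higher and 0 lower, against 3.54% of all genes tested called higher. The median log2 fold change of the 13 was 1.72, beside 0.27 over all genes tested. The 11 were also the mRNAs higher in the authors' deposited table at an adjusted p under 0.05. In 12 of 13 mRNAs every ADAR3 IP library lay above every pre-immune library, as in 10.7% of all genes tested; MT-RNR2 lay wholly below, as did 5.22%.

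Compared with input the mRNAs divided. ADAR3 IP over input gave 2 called higher, 7 lower and 4 not called, with a median of -0.49 beside -0.036 over all genes. Of all genes tested in this comparison, 32.6% were called higher and 36.1% lower, so a call higher was no more frequent among the mRNAs. The same 2 mRNAs lay wholly above input and the same 7 wholly below, as did 28.7% and 32.7% of all genes tested. Pre-immune IP over input gave all 13 called lower, with a median of -2.01 beside -0.34, where 5.52% of all genes tested were called lower. None of the 13 overlapped input, and 16.9% of all genes tested lay wholly below it. Both rRNAs lay wholly above it, as did 5.86%. The 3 comparisons share groups and are not independent of one another.

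**Figure D3:**
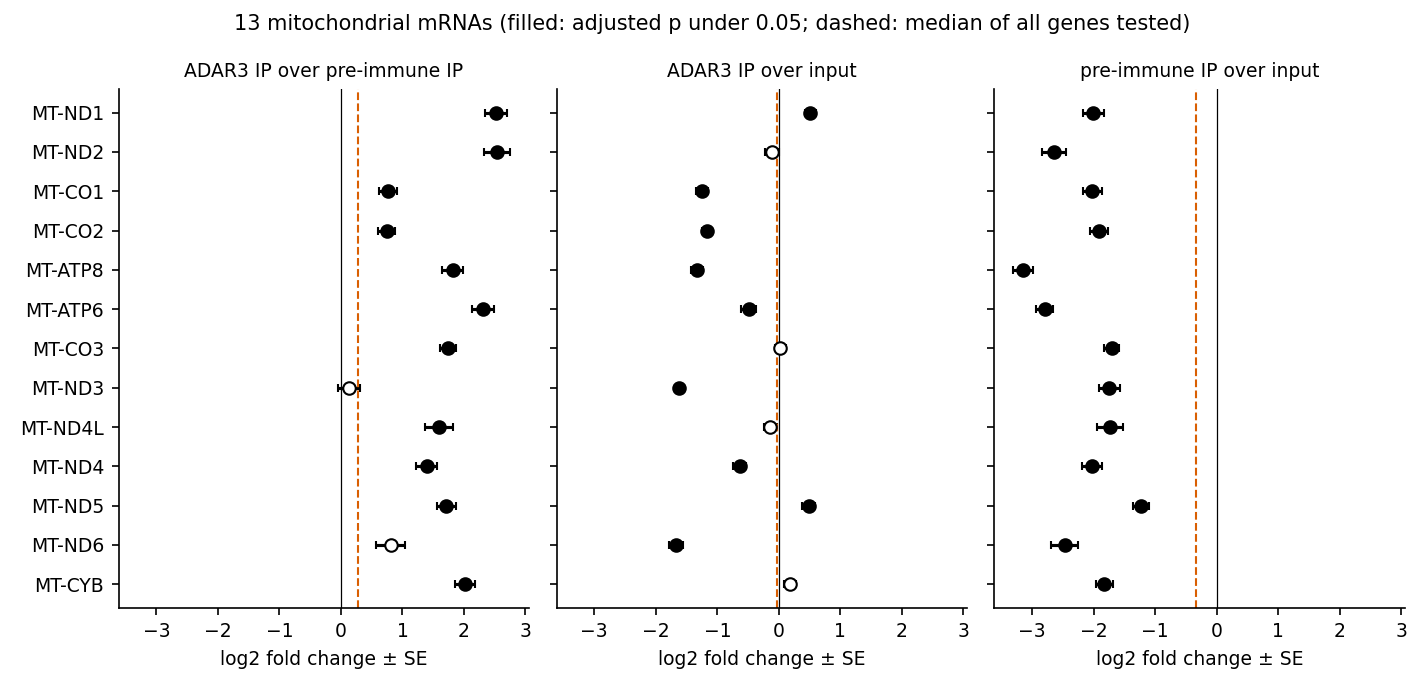
Log2 fold changes (points) with SE (bars) of the 13 mRNAs in genome order for the 3 comparisons, filled where the limma adjusted p was under 0.05, with the median of all genes tested as a dashed line. ADAR3 IP over pre-immune IP runs from 0.13 for MT-ND3 to 2.54 for MT-ND2, and all 13 lie below -1.2 in pre-immune IP over input.

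Among complex I mRNAs, MT-ND1 (ENSG00000198888, chrMT:3307-4262) and MT-ND2 (ENSG00000198763, chrMT:4470-5511), both subunits of the membrane arm, had the largest mRNA differences between the IPs. MT-ND1 was at 7479, 7557, 6880 and 5952 CPM in ADAR3 IP, 936, 1758, 1251 and 1032 CPM with pre-immune serum and 4826, 4568, 4920 and 5122 CPM in input. Every ADAR3 IP library was thus above every input library, and every pre-immune library below. The log2 fold changes of MT-ND1 were 2.52 ± 0.18 over pre-immune IP (SE; limma adjusted p = 7.83e-06) and 0.51 ± 0.093 over input (limma adjusted p = 0.000128). MT-ND2 was at 6358, 7138, 5769 and 4513 CPM in ADAR3 IP, 850, 1646, 916 and 808 CPM with pre-immune serum and 6336, 5965, 6517 and 6508 CPM in input. Its ADAR3 IP and input libraries overlapped, and pre-immune IP lay below both. The log2 fold change of MT-ND2 was 2.54 ± 0.22 over pre-immune IP (limma adjusted p = 2.32e-05) and -0.11 ± 0.12 over input (limma adjusted p = 0.413).

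MT-ND5 (ENSG00000198786, chrMT:12337-14148), a membrane-arm subunit, was the other mRNA called higher in ADAR3 IP than in input. It measured 4774, 6096, 4936 and 4339 CPM in ADAR3 IP, 1502, 1929, 1479 and 1249 CPM with pre-immune serum and 3685, 3264, 3815 and 3545 CPM in input. The 3 groups were fully separated, with ADAR3 IP on top. Its log2 fold changes were 1.72 ± 0.15 over pre-immune IP (SE; limma adjusted p = 3.47e-05) and 0.48 ± 0.10 over input (limma adjusted p = 0.000467).

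MT-ND3 (ENSG00000198840, chrMT:10059-10404), a small subunit next to the hydrophilic arm, was one of the 2 mRNAs not called between the IPs. It stood at 371, 359, 310 and 356 CPM in ADAR3 IP, 228, 418, 359 and 298 CPM with pre-immune serum and 1071, 1008, 1112 and 1087 CPM in input. The IPs overlapped, and both lay below input. The log2 fold change between the IPs was 0.13 ± 0.18 (SE; limma adjusted p = 0.717), below the median of all genes. Over input it was -1.62 ± 0.072 in ADAR3 IP (limma adjusted p = 2.17e-11) and -1.75 ± 0.17 with pre-immune serum (limma adjusted p = 0.000223).

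MT-ND4 and MT-ND4L are read from one mRNA in overlapping frames. MT-ND4 (chrMT:10760-12137) averaged 6594 ± 896 CPM in ADAR3 IP, 2551 ± 643 CPM with pre-immune serum and 10169 ± 691 CPM in input, and was called between each pair of groups. MT-ND4L (chrMT:10470-10766) averaged 2025 ± 349, 698 ± 285 and 2210 ± 122 CPM in the same order. It was called higher in ADAR3 IP than with pre-immune serum (log2 fold change 1.59 ± 0.22, SE; limma adjusted p = 0.00144) but not against input (-0.14 ± 0.11, limma adjusted p = 0.25).

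The complex IV mRNAs encode the catalytic core of cytochrome c oxidase and did not move alike. MT-CO1 (ENSG00000198804, chrMT:5904-7445), the subunit with the heme-copper centre, was at 5259, 5316, 5439 and 5610 CPM in ADAR3 IP, 2534, 4061, 3414 and 2873 CPM with pre-immune serum and 11816, 11856, 13478 and 14552 CPM in input. The groups did not overlap, and ADAR3 IP lay between the controls. MT-CO1 was 0.77 ± 0.15 higher on the log2 scale in ADAR3 IP than with pre-immune serum (SE; limma adjusted p = 0.0106) and at -1.25 ± 0.093 against input (limma adjusted p = 7.38e-09). MT-CO2 (chrMT:7586-8269), which holds the site that takes electrons from cytochrome c, behaved the same way, at 0.74 ± 0.14 (limma adjusted p = 0.0107) and -1.17 ± 0.084 (limma adjusted p = 4.42e-09). Neither call between the IPs held with variance weights per group, where the limma adjusted p was 0.0557 for MT-CO1 and 0.0546 for MT-CO2.

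MT-CO3 (ENSG00000198938, chrMT:9207-9990), the third core subunit, had the highest level per kilobase of the 13 mRNAs in both IPs. ADAR3 IP held 12048, 11444, 12120 and 11460 CPM, pre-immune IP 3121, 4260, 3520 and 3328 CPM and input 11602, 10888, 11711 and 12090 CPM. ADAR3 IP and input overlapped, and pre-immune IP was far below both. The log2 fold change of MT-CO3 was 1.74 ± 0.13 between the IPs (SE; limma adjusted p = 1.16e-05) and 0.025 ± 0.089 against input (limma adjusted p = 0.815).

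MT-CYB (ENSG00000198727, chrMT:14747-15887) encodes cytochrome b of complex III. It was at 11480, 11589, 10021 and 9268 CPM in ADAR3 IP, 2360, 3462, 2485 and 2266 CPM with pre-immune serum and 9218, 8659, 9505 and 9739 CPM in input. Between the IPs its log2 difference was 2.02 ± 0.16 (SE; limma adjusted p = 1.29e-05). Against input it was 0.19 ± 0.098 and was not called (limma adjusted p = 0.105), although ADAR3 IP overlapped input in 1 library alone, replicate 4. MT-CYB was called higher than input without ADAR3 IP replicate 4 (limma adjusted p = 0.0199), with edgeR (adjusted p = 0.0481) and with DESeq2 (adjusted p = 0.0129). It was also called with the rRNAs left out of the library total, a setting chosen after seeing the data (limma adjusted p = 0.0239). In the other settings run it was not called.

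MT-ATP8 (ENSG00000228253, chrMT:8366-8572) and MT-ATP6 (ENSG00000198899, chrMT:8527-9207) encode ATP synthase subunits of the proton-translocating part, in overlapping frames of one mRNA. MT-ATP6 was at 6008, 7390, 5682 and 4467 CPM in ADAR3 IP, 1172, 1566, 1041 and 970 CPM with pre-immune serum and 8415, 7943, 8158 and 7980 CPM in input. MT-ATP8 was at 1344, 1588, 1271 and 1182 CPM, at 327, 552, 351 and 325 CPM and at 3582, 3182, 3617 and 3089 CPM in the same order. For both genes ADAR3 IP lay between the controls without overlap. Between the IPs the log2 fold changes were 2.31 ± 0.18 for MT-ATP6 (SE; limma adjusted p = 1.29e-05) and 1.82 ± 0.17 for MT-ATP8 (limma adjusted p = 6.64e-05). Against input they were -0.49 ± 0.12 (limma adjusted p = 0.00197) and -1.33 ± 0.093 (limma adjusted p = 3.65e-09). The MT-ATP6 call against input did not hold when genes of any level were tested (limma adjusted p = 0.0669).

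Reads counted for the frames of one mRNA thus did not keep one proportion across the groups. Reads of MT-ATP8 per read of MT-ATP6 numbered 0.224, 0.215, 0.224 and 0.265 in ADAR3 IP, 0.279, 0.353, 0.338 and 0.335 with pre-immune serum, and 0.426, 0.401, 0.443 and 0.387 in input. No group overlapped another. For MT-ND4L over MT-ND4 the ratio was 0.332, 0.301, 0.308 and 0.284 in ADAR3 IP, 0.212, 0.324, 0.246 and 0.295 with pre-immune serum, and 0.217, 0.221, 0.213 and 0.219 in input. Here ADAR3 IP lay above input and pre-immune IP overlapped both, so the pairs differed in opposite directions from input. How reads over the shared bases were counted is not given in the sources used here, and these ratios were not tested.

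**Figure D4:**
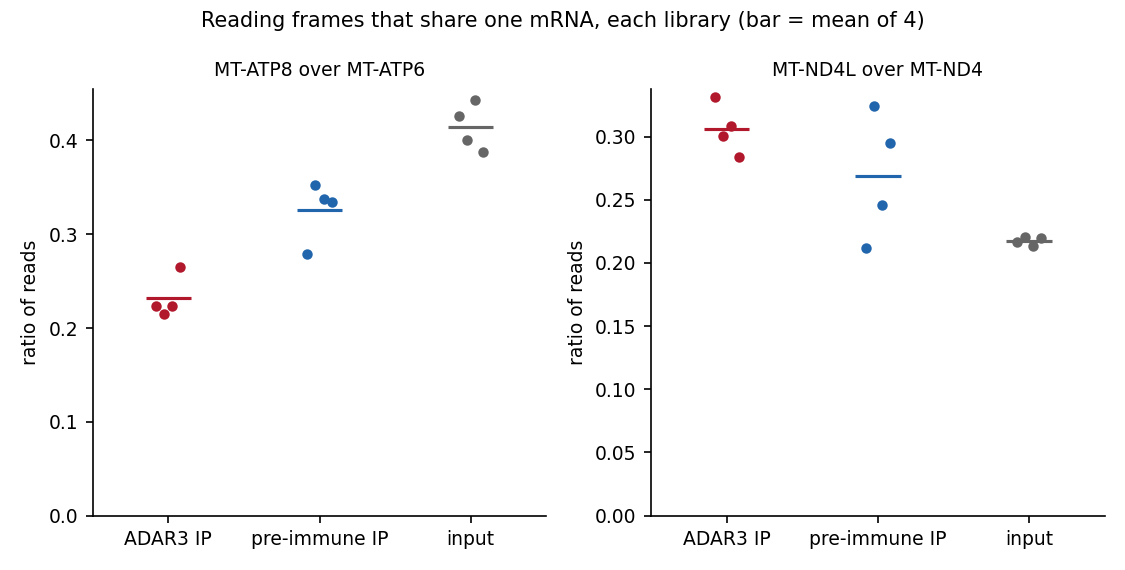
Ratio of reads between frames that share an mRNA, with 1 point per library and a bar at the mean. MT-ATP8 over MT-ATP6 is lowest in ADAR3 IP and highest in input, and MT-ND4L over MT-ND4 is higher in ADAR3 IP than in input.

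Per kilobase of RefSeq gene length, the order of the mRNAs shifted between groups. In input the highest level was that of MT-ATP8 at 16268 ± 1309 RPKM, with MT-CO3 at 14761 ± 641 RPKM and within the combined spread of both. MT-CO2 at 12206 ± 719 RPKM and MT-ATP6 at 11929 ± 317 RPKM followed and did not differ beyond their spread. MT-ATP8 and MT-ATP6 are frames of one mRNA that share bases, and how reads over these were counted is not given. Their levels per kilobase are therefore not levels of separate mRNAs. The lowest were MT-ND5 at 1974 ± 130 RPKM and MT-ND6 at 1566 ± 225 RPKM. In ADAR3 IP MT-CO3 led at 15010 ± 467 RPKM, followed by MT-CYB at 9281 ± 995 and MT-ATP6 at 8644 ± 1765 RPKM, which did not differ beyond their spread, and MT-ND6 was last at 494 ± 80.4 RPKM. In pre-immune IP MT-CO3 led at 4537 ± 632 RPKM, MT-CO2 followed at 3280 ± 660 RPKM, and MT-ND6 was again last at 291 ± 96.3 RPKM. The group spreads of MT-CO3 and MT-CO2 met, but MT-CO3 was above MT-CO2 in each pre-immune library.

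As shares of the reads of the 13 mRNAs, MT-ND1 made up 10.6% ± 0.306 in ADAR3 IP, 5.91% ± 0.566 with pre-immune serum and 5.88% ± 0.0989 in input. MT-CO1 made up 8.27% ± 1.00, 15.5% ± 1.31 and 15.6% ± 1.10. For these genes the share with pre-immune serum was close to that of input, while in ADAR3 IP MT-ND1 took more and MT-CO1 less. MT-CO2 and MT-ND4 resembled MT-CO1 in this. Other mRNAs did not follow it. MT-ATP8, MT-ND5 and MT-CO3 were close between the IPs and away from input. In the same order, MT-ATP8 made up 2.04% ± 0.109, 1.85% ± 0.122 and 4.08% ± 0.326. MT-ND5 made up 7.63% ± 0.611, 7.44% ± 0.609 and 4.33% ± 0.166. Both MT-ND2 and MT-ATP6 were lowest with pre-immune serum. MT-ND2 was at 8.96% ± 0.903, 4.96% ± 0.731 and 7.66% ± 0.0632, and MT-ATP6 at 8.87% ± 1.05, 5.71% ± 0.568 and 9.84% ± 0.488. Across the 13 mRNAs, which share libraries and precursors, the Spearman correlation of the log2 fold change with gene length was 0.12 for ADAR3 IP over pre-immune IP, 0.51 for ADAR3 IP over input and 0.24 for pre-immune IP over input. That with position along the genome was -0.26, -0.066 and 0.35.

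MT-ND6 (ENSG00000198695, chrMT:14149-14673), the only light-strand mRNA, encodes a complex I membrane-arm subunit. It was at 309, 275, 211 and 241 CPM in ADAR3 IP, 204, 105, 113 and 188 CPM with pre-immune serum and 797, 765, 995 and 732 CPM in input. Each ADAR3 IP library lay above each pre-immune library by a narrow margin, and both IPs were well below input. The log2 fold change between the IPs was 0.81 ± 0.23 (SE) and was not called (limma adjusted p = 0.065). It passed without pre-immune replicate 1 (limma adjusted p = 0.0385) or 4 (0.0377), with DESeq2 (0.0367) and with the replicate block in limma (0.0101). In the other settings run it was not called. These include edgeR (adjusted p = 0.127) and leaving out any 1 ADAR3 IP library (limma adjusted p = 0.109 to 0.212). Nor did it pass in the authors' deposited table (adjusted p = 0.0903). Between IP libraries of one number, deviations from group means correlated at -0.00099 to 0.024, so no pairing backs the replicate block. Against input the log2 fold change of MT-ND6 was -1.67 ± 0.11 in ADAR3 IP (limma adjusted p = 2.11e-09), the most negative value among the mRNAs. With pre-immune serum it was -2.47 ± 0.22 (limma adjusted p = 0.000104).

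Set against the heavy-strand mRNAs of the same library, light-strand MT-ND6 was scarcest in ADAR3 IP. Per 1000 reads of the 12 heavy-strand mRNAs there were 4.53, 3.83, 3.28 and 4.16 MT-ND6 reads in ADAR3 IP, 11.4, 3.89, 5.68 and 10.6 with pre-immune serum, and 9.77, 10.0, 11.8 and 8.63 in input. ADAR3 IP lay wholly below input, whereas pre-immune IP spread across both. The mean log2 ratio was -7.99 ± 0.20 in ADAR3 IP, -7.12 ± 0.74 with pre-immune serum and -6.65 ± 0.18 in input. The low level of MT-ND6 against input was not particular to the light strand, since heavy-strand MT-ND3 stood at -1.62 ± 0.072 (SE) on the log2 scale beside -1.67 ± 0.11 for MT-ND6. Nor was a low share in ADAR3 IP. Of the reads of the 13 mRNAs, MT-ND3 held 0.532% ± 0.0579 in ADAR3 IP, 1.56% ± 0.226 with pre-immune serum and 1.29% ± 0.0170 in input. Its ADAR3 IP libraries lay wholly below both controls. Heavy-strand MT-CO1 and MT-CO2 also had their lowest share in ADAR3 IP, whereas MT-ND1 and MT-CYB had their highest there.

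**Figure D5:**
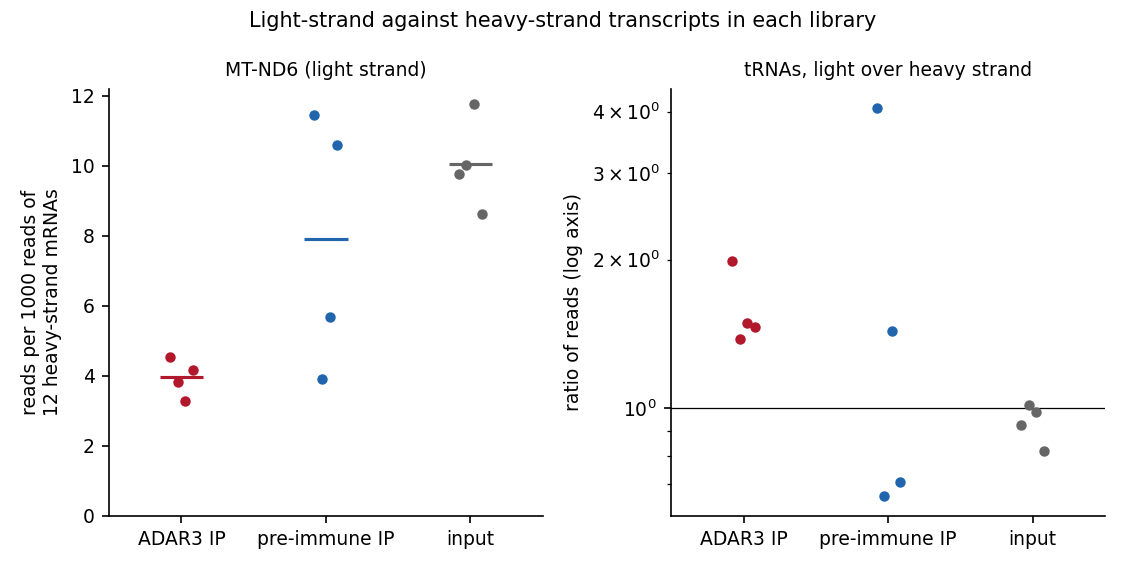
Left, MT-ND6 reads per 1000 reads of the 12 heavy-strand mRNAs, with 1 point per library and a bar at the mean; right, the ratio of light-strand to heavy-strand tRNA reads (log axis). ADAR3 IP lies below input on the left and above input on the right, and pre-immune IP overlaps both in each panel.

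The tRNAs adapt codons to amino acids during mitochondrial translation and are the cleavage points of the precursors. Their short mature forms are poorly captured by libraries for long RNA. The 15 with a row comprised 7 of the 8 light-strand and 8 of the 14 heavy-strand tRNAs. Only 6, 8 and 7 of the 22 reached the mean of 5 CPM in ADAR3 IP over pre-immune IP, ADAR3 IP over input and pre-immune IP over input. Several reached it through the group where they were higher, so their calls are described and support nothing.

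MT-TT (chrMT:15888-15953, heavy strand) and MT-TP (chrMT:15956-16023, light strand), neighbours past the end of MT-CYB, had the most tRNA reads in every group. MT-TT was at 48.3, 53.0, 49.8 and 61.0 CPM in ADAR3 IP, 4.25, 27.9, 14.6 and 27.2 CPM with pre-immune serum and 141, 123, 154 and 147 CPM in input. It was called lower than input in ADAR3 IP (log2 fold change -1.40 ± 0.096, SE; limma adjusted p = 2.66e-09) and with pre-immune serum (-3.14 ± 0.49, limma adjusted p = 0.00391). MT-TP was at 66.3, 56.1, 41.7 and 58.5 CPM, at 20.02, 21.8, 37.3 and 0 CPM, and at 88.2, 84.7, 99.3 and 76.7 CPM in the same order. Both genes were ordered input, ADAR3 IP, pre-immune IP without overlap. MT-TP was called lower in ADAR3 IP than in input (-0.65 ± 0.12, limma adjusted p = 0.000206) and was not called with pre-immune serum (-2.92 ± 0.94, limma adjusted p = 0.0926). Without pre-immune replicate 4, which held 0 MT-TP reads, the latter value was -1.74 and was called (limma adjusted p = 0.00472). It was also called with the replicate block (limma adjusted p = 0.00266) and with variance weights per group (0.0126).

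MT-TS1 (chrMT:7446-7514, light strand) was the only tRNA called between the IPs. It was at 21.1, 18.9, 17.7 and 23.6 CPM in ADAR3 IP, 0.404, 2.86, 0.228 and 5.87 CPM with pre-immune serum and 18.1, 20.5, 20.7 and 19.5 CPM in input. ADAR3 IP overlapped input and pre-immune IP lay below both. Its log2 fold change between the IPs was 3.03 ± 0.77 (SE; limma adjusted p = 0.0433), from only 22 pre-immune reads. That call was lost with the replicate block (limma adjusted p = 0.0681), with edgeR (adjusted p = 0.131), without any 1 ADAR3 IP library (limma adjusted p = 0.164 to 0.182) and without pre-immune replicate 1 (0.0553). In pre-immune IP over input MT-TS1 was lower by a limma adjusted p of 0.0328, but with the replicate block at 0.0587, with edgeR at 0.128, and without any 1 input library at 0.125 to 0.15. There too the call was lost with 0.1 added to the CPM (limma adjusted p = 0.0784) and with median-ratio size factors (0.0805).

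Other tRNAs of the light strand differed from input in both directions. MT-TQ was higher in ADAR3 IP than in input (log2 fold change 0.75 ± 0.18, SE; limma adjusted p = 0.00173), at 10.6 to 18.1 against 6.50 to 8.96 CPM. MT-TA was lower (-1.48 ± 0.22, limma adjusted p = 1.76e-05), at 4.71 to 11.04 against 17.0 to 26.9 CPM. MT-TE and MT-TY were not called, at -0.18 ± 0.20 (limma adjusted p = 0.431) and 0.18 ± 0.22 (limma adjusted p = 0.475). On the heavy strand MT-TM was lower (-0.78 ± 0.19, limma adjusted p = 0.00143). In pre-immune IP over input MT-TA was called lower (-3.76 ± 0.78, limma adjusted p = 0.0176) from 14 reads in all, and not with edgeR (adjusted p = 0.175) or without any 1 input library (limma adjusted p = 0.0833 to 0.0992). MT-TQ, MT-TM and MT-TE were not called in that comparison, nor were MT-TF, MT-TQ, MT-TM, MT-TT and MT-TP between the IPs. With the replicate block MT-TT and MT-TP were called higher in ADAR3 IP (limma adjusted p = 0.0444 and 0.0368). MT-TT was also called with DESeq2 (adjusted p = 0.0269) and without pre-immune replicate 4 (limma adjusted p = 0.0363), MT-TP with variance weights per group (0.0386), and MT-TQ without pre-immune replicate 4 (0.0285).

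MT-TK had no row in the IP table and is taken as 0 there. Reads of MT-TI, MT-TL1, MT-TH and MT-TK were 0 in all 4 pre-immune libraries together, which allows a level of up to 0.214 CPM (3 reads over the group, counting error only). MT-TI had 375 reads over the ADAR3 IP libraries and 132 over the input libraries, 15.9-fold and 16.4-fold above that level when pooled. Its level ran from 1.28 to 5.07 CPM among the ADAR3 IP libraries. These folds leave out variation between libraries and are not lower bounds on a group difference. In the authors' deposited table MT-TI, MT-TS1 and MT-TT were the tRNAs higher in ADAR3 IP than with pre-immune serum at an adjusted p under 0.05. MT-TN, MT-TL2 and MT-TF had 6 to 106 pre-immune reads and stayed between 0.428 and 7.57 pooled CPM in that group.

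Summed, light-strand tRNAs gave 1.99, 1.38, 1.49 and 1.46 reads per heavy-strand tRNA read in ADAR3 IP, 4.06, 0.662, 1.43 and 0.706 with pre-immune serum, and 0.923, 1.02, 0.984 and 0.819 in input. ADAR3 IP lay wholly above input, and pre-immune IP, with 498 light-strand and 410 heavy-strand reads in all, spread over both. The summed tRNA ratio thus differed from input in the opposite direction from that of MT-ND6. However, MT-TT alone held 5228 of the 5969 heavy-strand tRNA reads of input and 5816 of the 7907 of ADAR3 IP. The ratio therefore mainly follows MT-TT and gives no strand direction for the other tRNAs.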

How the data were processed

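The submitters' processing notes name GRCh38, featureCounts, STAR 2.7.7a and DESeq2 with no roles; the gene annotation is not given in the sources used here. The authors deposited a normalized signal per gene, that is, read counts over a library-specific size factor, in an IP table (28556 genes) and an input table (28061 genes) normalized separately. In every library 100% of values came out as whole reads (within 0.001 reads), so reads were recovered and set to CPM on one scale. No gene was at 0 throughout a table, so a gene missing from one table counted as 0 there. The authors' deposited log2 fold changes and adjusted p-values of ADAR3 IP over pre-immune IP are cited by name.

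Each pair of groups was fitted with limma 3.58.1 (R 4.3.3, variance trend) on log2(CPM + 1), for genes with a mean of at least 5 CPM over the 8 libraries, with Benjamini-Hochberg adjustment over all genes at 0.05. The scripts were tested on simulated data. Alternatives used edgeR 4.0.16 and DESeq2 1.42.0 on recovered reads. Each of the 37 genes is accounted for: mRNAs and rRNAs are named with values, and tRNAs where they reached the minimum. The members and lists were chosen with earlier results of these data known. Positions and lengths are from RefSeq (GRCh38.p14), matched by symbol for 37 genes; strands are textbook knowledge. Names of the 37 IDs follow the given member list. The files do not pair other IDs with symbols, so lists of nuclear genes for mitochondrial RNA handling, nuclear copies and cell type markers were not analysed here.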

Additional observations from a re-analysis of the deposited data

Results flagged for a closer look

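Of 117 sets of 4 values examined, 8 held a library apart from the other 3, with a gap past the 95% limit of Dixon for 4 values; chance gives about 1 in 20. Pre-immune IP replicate 2 was highest for MT-ND2 (1646 CPM, the next at 916), MT-ATP8 (552 CPM, the next at 351), MT-ND4L (1124 CPM, the next at 588) and MT-TA (5.01 CPM, the others at 0), and for the log2 ratio of MT-ND1 to MT-CO1 (-1.21, the next at -1.44). The same library had the largest mRNA share of its group, 2.72% of reads. Pre-immune IP replicate 4, the shallowest library, held MT-TQ at 26.1 CPM, with the next at 2.63 CPM, and without it MT-TQ was called higher in ADAR3 IP than in pre-immune IP (limma adjusted p = 0.0285). ADAR3 IP replicate 4 was highest for MT-TY (10.9 CPM, the next at 6.07), and ADAR3 IP replicate 3 lowest for the rRNA share (5.01%, the next at 5.69%).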

How the results depend on the processing

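For ADAR3 IP over pre-immune IP, 12 members were called higher and 1 lower of 21 tested, where 3.54% and 1.44% of all genes tested were. For ADAR3 IP over input the counts were 5 and 11 of 23, where 32.6% and 36.1% of all genes were called. For pre-immune IP over input they were 2 and 16 of 22, where 1.43% and 5.52% of all genes were called. In all settings run the counts of members stayed within 1.5 times these counts, and no called member changed direction. Leaving out 1 library gave 11 to 15 and 1, 5 to 6 and 11, and 2 and 14 to 17. With the replicate block in limma the counts were 14 and 1, 5 and 11, and 2 and 16. Between libraries of one number, deviations from group means had correlations of -0.00099 to 0.024 between the IPs, of -0.096 to 0.32 between ADAR3 IP and input, and of -0.00093 to 0.093 between pre-immune IP and input, and no pairing is taken from them; 0, 3 and 3 of 4 libraries correlated best with their own number. The library total without the rRNAs, chosen after seeing the data, moved the median of all genes from 0.27 to 0.19 between the IPs, from -0.036 to 0.043 in ADAR3 IP over input and from -0.34 to -0.18 in pre-immune IP over input. With that total the mRNAs alone, also chosen after seeing the data, made up 6.98% in ADAR3 IP and 2.35% with pre-immune serum. The summed level in input became 8.80% without the 10 most abundant other genes. As a median over single heavy-strand mRNAs the log2 ratio of MT-ND6 was -4.43 in ADAR3 IP, -3.25 with pre-immune serum and -3.13 in input, a different quantity by construction. Depth limits the tRNAs most: the 4 pre-immune libraries held 908 tRNA reads in all.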
